A study of Sus scrofa with 12 samples.

Results

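FN1 encodes fibronectin, and the items described here are the m6A peaks on its mRNA in boar sperm. They are all peaks that lie on the minus strand of chromosome 15 between the ends of the FN1 gene (chr15:117658158-117737145, Sscrofa11.1), taken from the peak lists of 6 samples. There are 93 such peaks among the 61902 peaks of the 6 lists, and no peak of the opposite strand lies in the interval. FN1 was selected on the number of these peaks in frozen-thawed sperm, so the peak numbers, covered shares and scores that set the groups apart are given as a description, with no test. Methylated RNA immunoprecipitation sequencing (MeRIP-seq) was run on sperm of 3 Duroc boars. Fresh sperm (Fs) went into liquid nitrogen straight after collection. Frozen-thawed sperm (Fts), the other part of the divided ejaculates, was cooled in steps, taken up in a lactose and egg yolk extender and then in the same extender with glycerol, packed in straws, frozen and thawed. Each group had 3 immunoprecipitated (IP) and 3 input libraries, and the methods state that the sperm pellets were treated with Triton X-100 against somatic cells. The methods call the boars mature, state that each boar's ejaculates were split between the groups and describe the Fs and Fts comparisons as paired, but the labels of the samples do not tie a number to a boar.

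Fibronectin is a large secreted glycoprotein that cells bind through integrins and assemble into fibrils of the extracellular matrix. It circulates in plasma after synthesis in the liver, and fibroblasts and many epithelial cells make a cellular form. The protein is built of repeats of types I, II and III, nearly all coded by separate exons or pairs of exons, and alternative splicing leaves out the type III repeats EDB and EDA and parts of the variable region in many tissues. The modification m6A is a methyl group on adenosine that METTL3 and METTL14 add to mRNA, mostly within the sequence RRACH, in which R is A or G and H is A, C or T.

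The sequences below show the exons that carried the highest scores in Fts and, for contrast, the alternative repeats EDB and EDA, which carried no peak. The score of a peak is the deposited MACS value, 10 times the -log10 of the p of IP reads against the input reads of the same sample. Exon 47 is printed whole because its mean score was the highest, and it was chosen for this after its values were seen, as were EDB and EDA. The other lines hold 30 bases around the RRACH match nearest to the middle of the exon. Capitals mark every RRACH match in the line, which are 2 overlapping matches in exon 13 and 1 in each of the other windows, and in exon 47, which has none, they mark the match to DRACH, in which D is A, G or T. All lines are the transcript strand, which is the minus strand of Sscrofa11.1, read 5′ to 3′ from the RefSeq genome.
exon 47, type I-11, chr15:117663100-117663225: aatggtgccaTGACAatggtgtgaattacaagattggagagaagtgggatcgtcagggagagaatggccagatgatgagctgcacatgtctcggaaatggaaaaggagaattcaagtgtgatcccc
exon 44, variable region and type III-15, chr15:117669316-117669345: aggcataggccaGGACCgtatacgccgaat
exon 13, type I-7, chr15:117716994-117717023: gatcagtgGGACAAACAgcatgatatgggt
exon 25, type III-6, chr15:117694476-117694505: agaagtgacttcAGACTcgggaagcatcgt
exon 22, type III-4, chr15:117702688-117702717: gcccatcagcagGAACAcctttgcagaagt
exon 21, type III-3, chr15:117703825-117703854: tcaaccttcctgAAACTgccaactctgtca
exon 28, EDB, chr15:117689389-117689418: tgaagattttgcGGACTcctcagtaggata
exon 37, EDA, chr15:117678032-117678061: tgatggtgaagaAGACActgcagagctgca

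Exon 47 lies in the coding sequence of the type I-11 repeat, near the C terminus, and held 0 RRACH matches in 126 nt. Exons between 90 and 467 nt, the range of the exons with a peak in every Fts sample, were compared. An RRACH match was found in 41 of 46 such FN1 exons (89.1%). For chromosome 15, with the longest coding transcript of each gene, it was found in 89.0% of 6453 such exons. The EDB window shows the letters GGACT, an RRACH match, in an exon without a peak in Fts.

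RefSeq gives FN1 as 1 transcript model of 50 exons and 8560 nt. Repeats were assigned to its exons from the known order of the protein. Translation of the exons placed the integrin-binding motif RGD in exon 34, within type III-10, and a further RGD in exon 44. The motif LDV, also bound by integrins, lay in exon 44, which codes for the variable region, and again in exon 50. The EDA motif EDGIHEL lay in exon 37 and the EDB stretch EGIPIF in exon 28. The motif PHSRN, the synergy motif of other mammalian fibronectins, was not found in any exon translated alone. A motif that crosses an exon junction would be missed in this way. In the model, type III-9 is broken a few bases apart into exon 31, from 117682772, and exon 32, up to 117682769. The absence of PHSRN from pig fibronectin is therefore not shown.

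FN1 carried 1, 2 and 0 peaks in the samples Fs1, Fs2 and Fs3 and 32, 31 and 27 peaks in Fts1, Fts2 and Fts3. Every Fts sample had more FN1 peaks than every Fs sample, with a mean of 30 ± 2.65 (SD, n = 3) in Fts and 1.0 ± 1.0 (SD, n = 3) in Fs. Among the 11271 genes with a peak in any sample, 1021 (9.06%) had more peaks in all 3 Fts samples than in any Fs sample and 608 (5.39%) had fewer. FN1 is among the 1021 by its selection, and nothing is read from that.

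The peaks covered 2.55%, 2.97% and 0% of the FN1 mRNA in Fs1, Fs2 and Fs3 and 61.9%, 60.4% and 54.5% in Fts1, Fts2 and Fts3. The covered share averaged 58.9% ± 3.94 (SD, n = 3) in Fts and 1.84% ± 1.61 (SD, n = 3) in Fs, and the groups did not overlap. By covered share, 13.0% of the 11037 genes with a covered base were higher in all 3 Fts samples and 7.98% were lower. In a bulk sample, fewer cells of a type and less RNA per cell cannot be told apart, and FN1 reads of the input libraries were not analysed here, so the peak lists do not give the level of FN1 RNA.

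**Figure D1:**
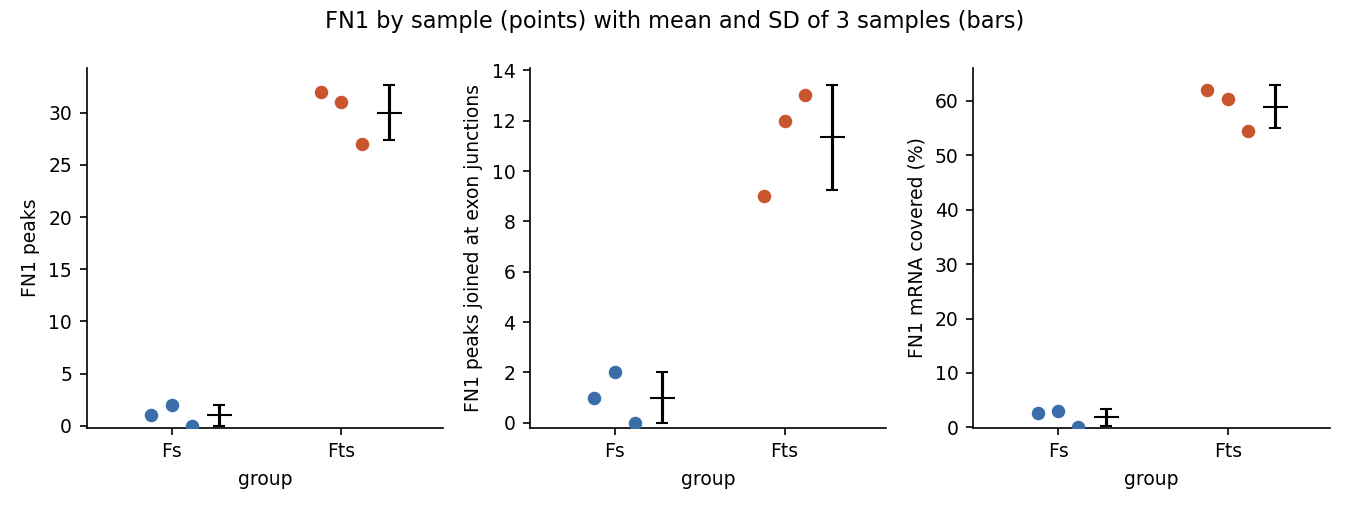
FN1 peaks, FN1 peaks joined at exon junctions, and the share of the FN1 mRNA covered by peaks (%), for each of the 3 Fs (blue) and 3 Fts (orange) samples. Black bars show the mean and SD of 3 samples. All Fts points lie above all Fs points, with 27 to 32 peaks in Fts and 0 to 2 in Fs.

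Nearly all FN1 peaks had the ends of a single exon. Of the peaks, 30 of 32 in Fts1, 27 of 31 in Fts2 and 24 of 27 in Fts3 were equal to an exon of the transcript model to the base. The shares were 93.8%, 87.1% and 88.9%, beside 41.9%, 46.1% and 43.3% of all peaks in the same lists and 31.6% to 32.5% in the Fs lists, for exons of the longest coding transcripts. The peaks that departed from this lay on exon 4, on exons 31 and 32 together, on exon 33 and on exon 50. The peak on exon 50 was 72 nt long, which is the coding part of that exon, and no peak lay in the 3′UTR. The exon 33 peak had 152 nt in each Fts sample, beside 117 nt of that exon in RefSeq. Peak ends thus need not follow the RefSeq model. Whether the authors' transcript model held the 3′UTR is not known here.

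Since a run of neighbouring exons can be a single stretch of the mRNA, peaks that met at an exon junction, each within 5 nt of the exon end, were counted as 1. FN1 then had 9, 12 and 13 joined peaks in Fts1, Fts2 and Fts3, and still 1, 2 and 0 in Fs1, Fs2 and Fs3. The mean was 11.3 ± 2.08 (SD, n = 3) in Fts and 1.0 ± 1.0 (SD, n = 3) in Fs. The longest run was in Fts1 and went without a break from exon 4 to exon 16, over 13 exons. The run from exon 21 to exon 25, which codes for most of the repeats III-3 to III-6, was present in each Fts sample.

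**Figure D2:**
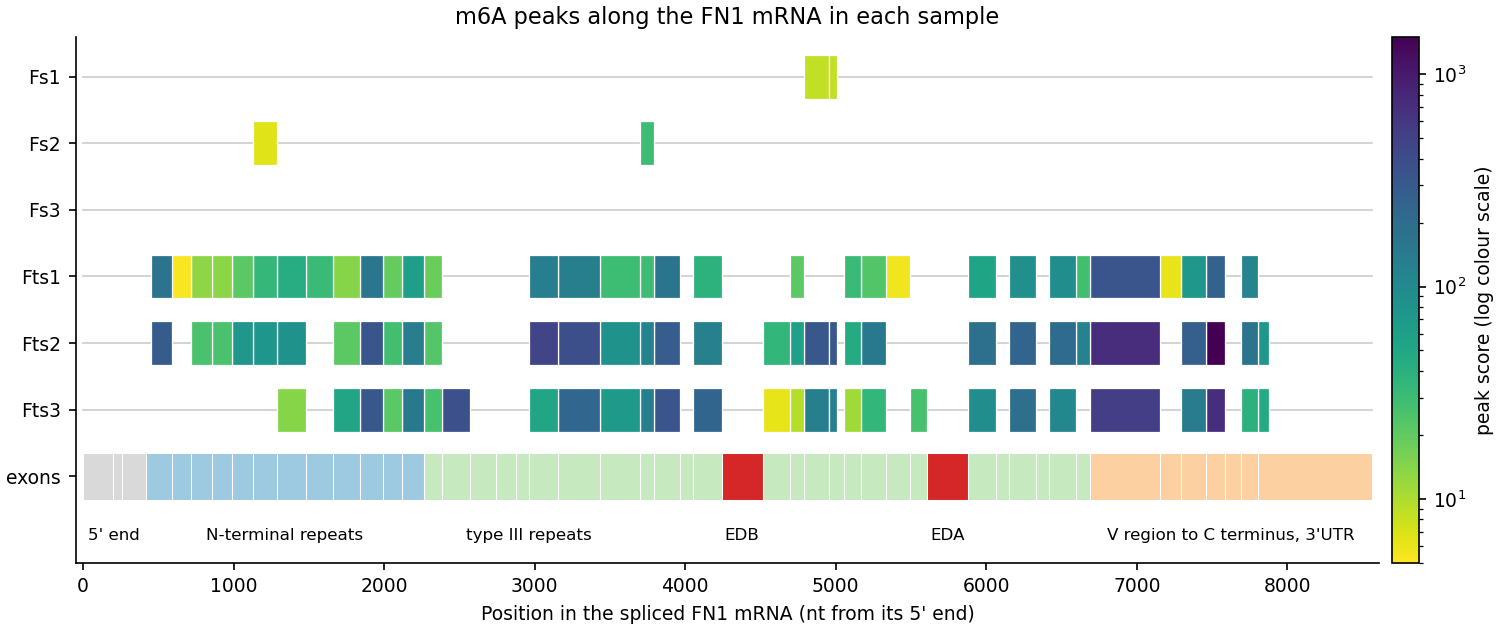
Peaks along the spliced FN1 mRNA (nt from its 5′ end) in the 6 samples, coloured by peak score on a log scale. The lowest row shows the exons, with the 5′ end of the model in grey, the N-terminal repeats in blue, the type III repeats in green, EDB and EDA in red, and the variable region, C terminus and 3′UTR in orange. EDB and EDA hold no peak in any sample, and Fts3 has no peak before exon 10.

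Of the 50 exons, 38 had a peak in at least 1 Fts sample, 22 had a peak in all 3 and 4 had a peak in an Fs sample. Of the 12 type I repeats, which bind fibrin, collagen and heparin at the N terminus and fibrin at the C terminus, 11 had a peak in any Fts sample and 6 had a peak in all 3. The repeat without a peak was type I-12. Of the 15 type III repeats other than EDB and EDA, 14 had a peak in any Fts sample and 12 had a peak in all 3. The repeat without a peak was type III-2, coded by exons 18 and 19. Type III-15 counts among the 12 through exon 44, which also codes for the variable region. Its other exon, exon 45, had a peak in Fts1 alone, with a score of 6.2.

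The N-terminal part differed most among the Fts samples. Peaks covered 98.2% of exons 4 to 15 in Fts1, 81.5% in Fts2 and 43.0% in Fts3. These exons code for the signal peptide and the type I and type II repeats that bind collagen and fibrin. On exon 4 the score was 172 in Fts1 and 295 in Fts2, and Fts3 had no peak there. On exons 5 to 9 Fts1 had scores from 5.27 to 33.9 and Fts3 had no peak. The central type III repeats without EDB and EDA were covered by 63.8%, 70.1% and 75.4% in Fts1, Fts2 and Fts3, and the part from exon 44 on by 53.8%, 50.3% and 50.3%. Fts3 was thus the lowest of the 3 samples at the 5′ side and the highest in the middle.

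The highest scores lay near the C terminus. Exon 47, in type I-11, had scores of 248, 1471 and 716 in Fts1, Fts2 and Fts3 and no peak in Fs. Its peak ranked 525th of 9682, 167th of 11510 and 243rd of 11982 in those lists, in which the median score was 12.9, 15.9 and 13.4. Exon 44, which codes for the variable region and the start of type III-15, had scores of 335, 721 and 536 and no peak in Fs. In Fts1 exon 44 scored above exon 47, and in Fts2 and Fts3 the order was the opposite. The third score by mean was that of exon 13, which codes for type I-7 in the collagen-binding part, with 161, 343 and 319.

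The exons that followed by mean score code for type III repeats. Exon 25 (type III-6) had scores of 166, 288 and 336. Exon 22 (type III-4) had scores of 131, 383 and 226. Exon 21 (type III-3) had scores of 134, 481 and 52.4, the widest relative spread among these 6 exons. Exon 34, which codes for the RGD motif that integrins such as α5β1 bind, scored lower, with 23.6, 149 and 35.0.

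Scores also differed by sample. The median FN1 score was 32.7 in Fts1, 127 in Fts2 and 91.5 in Fts3. Over the 22 exons with a peak in every Fts sample, Fts2 had the highest score on 16 exons and Fts3 on 6, and Fts1 had the lowest on 17 and Fts3 on 5. Within these 22 exons the order was alike. Spearman rho was 0.93 between Fts1 and Fts2, 0.71 between Fts1 and Fts3 and 0.73 between Fts2 and Fts3. Exons that lacked a peak in some Fts sample do not enter these values, so differences in presence are left out. Among them, exon 17 (type III-1) had a score of 375 in Fts3 and no peak in Fts1 and Fts2. All exons belong to 1 mRNA and share its level and the library, so the rho values are descriptions. A MACS score grows with the number of reads, and the read numbers of these exons were not analysed here.

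**Figure D3:**
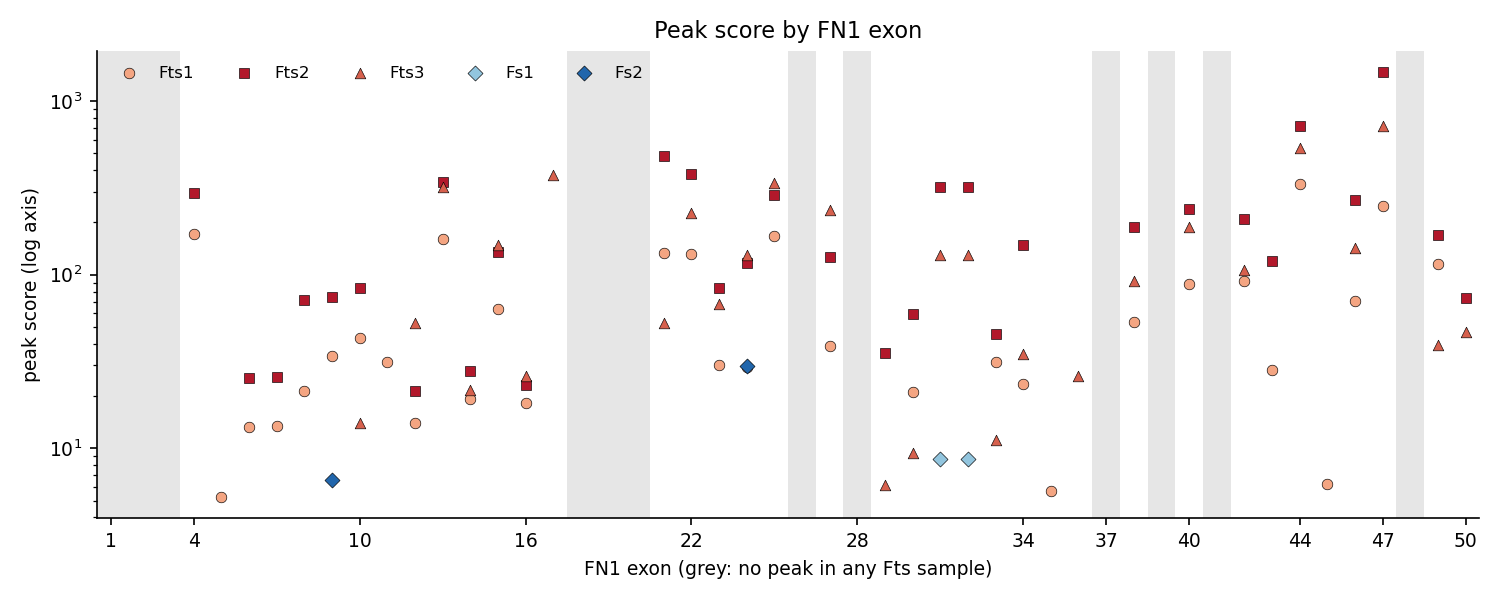
Peak score (log axis) by FN1 exon in the 3 Fts samples and in Fs1 and Fs2, with grey bands over exons that have no peak in any Fts sample. Exons 31 and 32 share a single peak and show its score at both, and on exon 24 the Fs2 symbol covers that of Fts1. Fts scores reach their maximum at exon 47, from 248 to 1471, and the Fs symbols lie between 6.58 and 29.6.

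The 12 exons with no peak in any Fts sample were exons 1, 2, 3, 18, 19, 20, 26, 28, 37, 39, 41 and 48. Exons 28 and 37 are EDB and EDA, of 273 and 270 nt, the repeats that plasma fibronectin lacks. Whether the RNA of these samples held these exons was not tested, since input reads were not analysed here. The other type III repeats given as a single exon in the model, type III-4 (273 nt) and type III-5 (267 nt), had a peak in each Fts sample. The scores were 30.1, 83.5 and 68.0 for type III-5. Type III-9 is given as exons 31 and 32, which lie only a few bases apart and may be a single exon. It had no peak in Fts1 and a shared peak with scores of 320.5 and 130.2 in Fts2 and Fts3. Exons 1 to 3 form the 5′ end of the transcript model.

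The remaining exons without a peak included the smaller exon of some type III repeats. From exon 4 on, 6 exons had at most 90 nt, of which 4 had no peak in Fts and 1 had a peak in all 3 Fts samples. In 12 type III repeats that the model gives as a pair of exons, both exons had a peak in 3 repeats in Fts1, 5 in Fts2 and 5 in Fts3. A peak on the first exon alone was found in 4, 3 and 3 repeats, a peak on the second alone in 3, 2 and 3, and neither in 2, 2 and 1. These counts include type III-9, whose exons lie a few bases apart. It counts as both in Fts2 and Fts3 through 1 shared peak, and as neither in Fts1. In type III-12 and type III-13 the longer first exon had a peak in each Fts sample, with scores of 53.8, 188 and 91.5 for exon 38 and 88.4, 240.3 and 189 for exon 40, and the shorter second exon had none. The median length was 118 nt for the 12 exons without an Fts peak, 148 nt and 150.0 nt for those with a peak in 1 and 2 Fts samples, and 167 nt for the 22 with a peak in all 3.

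The 3 Fs peaks lay where Fts samples had peaks as well. The peak of Fs1 spanned exons 31 and 32 (type III-9) with a score of 8.71, and Fts2 and Fts3 had the same interval with 320.5 and 130.2. The peaks of Fs2 were exon 24 (type III-6), with a score of 29.6, and exon 9 (type I-5), with a score of 6.58. On exon 24 the Fts scores were 29.6, 117 and 130, so the score in Fts1 was close to that in Fs2. On exon 9 Fts1 and Fts2 had the same interval with 33.9 and 74.4. No Fs peak on FN1 reached a score of 50, which is a MACS p of 1e-05, and Fts1, Fts2 and Fts3 had 13, 24 and 17 such peaks. By peaks of at least this score, 12.3% of the 3681 genes with such a peak had more in all 3 Fts samples and 4.73% had fewer.

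RRACH matches were not clearly denser in the covered bases. Of the 141 matches in the spliced mRNA, 99 lay in covered bases in Fts1, 88 in Fts2 and 71 in Fts3. Their density was 18.7 per kb in covered and 12.9 in other bases in Fts1, 17.0 and 15.6 in Fts2, and 15.2 and 18 in Fts3, so that the order was the opposite in Fts3. By the number of Fts samples with a peak, exons with none had 15.7 matches per kb, those with 1 had 20.0, those with 2 had 14.7 and those with all 3 had 16.2. The whole FN1 mRNA had 16.5 matches per kb, beside 14.1 over 740 genes of chromosome 15, each with its longest coding transcript. Peaks and matches were both taken on the transcript strand alone, and a match is a description, not a site.

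FN1 had the largest number of peaks of all genes in each Fts sample. The next gene in Fts2 and in Fts3 was CHD2, with 18 and 17 peaks. By joined peaks FN1 shared the first place in Fts1 with SPTBN1 at 9, and stood first in Fts2 and Fts3 with 12 and 13, where the next genes had 11 (SPTBN1) and 10 (UNC13A). By covered share FN1 was 4th, 22nd and 25th of 6772 genes with a peak and an mRNA of at least 3000 nt. In Fs1, Fs2 and Fs3 it was 1170th, 533rd and 6077th by peaks. Genes with more exons had more peaks, with a median of the Fts mean of 1.33 over 362 genes with 40 or more exons and a peak, FN1 left out, and 0.67 over 10908 genes with fewer. The highest Fts mean in the first of these sets was 12 (PATJ). The share with more peaks in all 3 Fts samples was 9.39% and 9.04% in these sets.

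**Figure D4:**
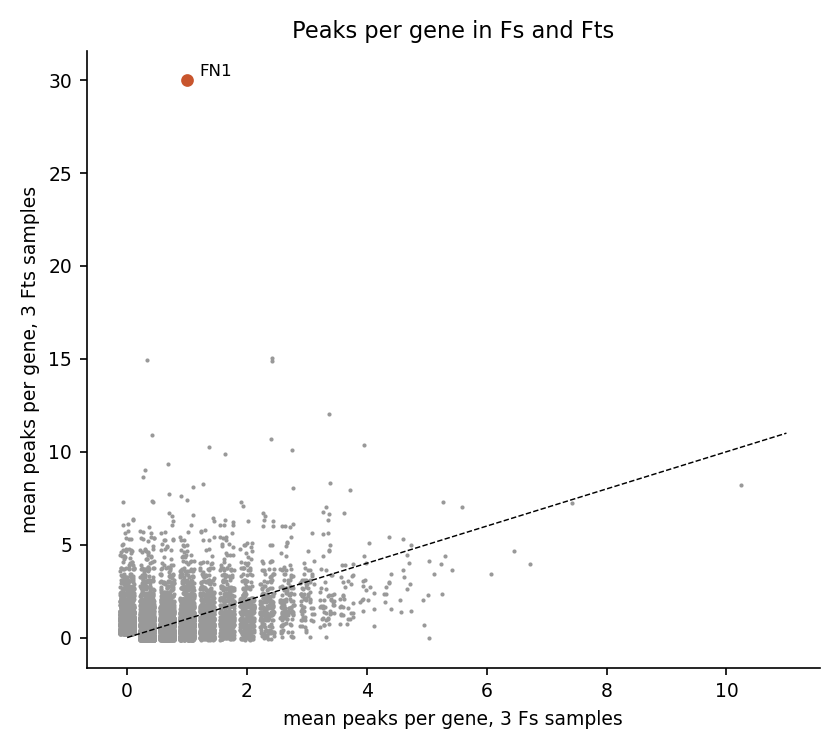
Mean number of peaks per gene in the 3 Fs samples (horizontal axis) and the 3 Fts samples (vertical axis) for the 11271 genes with a peak in any sample, with a small random shift to separate grey points and a dashed line of equality. FN1, the named point, lies at 1.0 and 30, above all other genes on the vertical axis.

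CHD2, SPTBN1, AMOT and ERC1 were among the genes with the next largest differences in peak number. SPTBN1, a spectrin of the membrane skeleton, had 3, 3 and 1 in Fs and 14, 15 and 16 in Fts. CHD2, a chromatin remodeller, had 4, 2 and 1 in Fs and 10, 18 and 17 in Fts. For AMOT, a scaffold protein of cell junctions, and ERC1, a scaffold protein of the cell periphery, the differences in mean peak number were 10.7 and 9.0, beside 29.0 for FN1.

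The covered share of FN1 over the 6 samples was most like that of GATA3, a transcription factor, among 9692 other genes with an mRNA of at least 3000 nt. GATA3 was covered by 0% in each Fs sample and by 57.6%, 60.9% and 58.6% in the Fts samples, at a Euclidean distance of 7.18 percentage points from FN1. The next were FAM46A, a poly(A) polymerase, at 13.9, ARID1A, a subunit of a chromatin remodelling complex, at 16.3 and AMOT at 16.7. FAM84A, LIMA1, HMGCS1, SPTBN1, ACTN4 and SON followed at 18.4 to 22.3. In all 10 genes the Fts values lay above the Fs values, which the choice by likeness to FN1 brings with it. These genes reached their covered share with fewer exons, as GATA3 had 7 exons and 2 to 3 peaks in Fts.

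**Figure D5:**
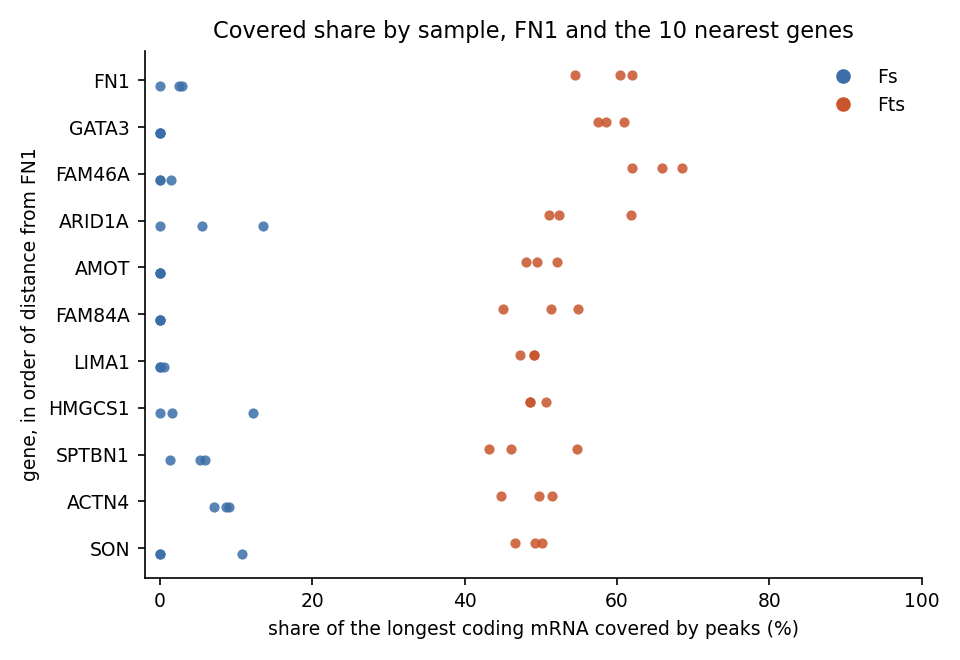
Share of the longest coding mRNA covered by peaks (%) in each Fs (blue) and Fts (orange) sample for FN1 and the 10 genes nearest to it by Euclidean distance over the 6 samples. FN1 lies at 0% to 2.97% in Fs and 54.5% to 61.9% in Fts, and no Fs point of the genes lies above 13.6%.

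Genes that act with fibronectin had few peaks beside FN1. Of 62 annotated genes in 4 lists, 47 had a peak, of which 5 (10.6%) had more peaks in all 3 Fts samples than in any Fs sample and 4 (8.51%) had fewer, near the 9.06% and 5.39% of all genes. With peaks of score 50 or more 1 was higher and 1 lower. Without Fs1 8 were lower, where leaving out a sample can only add genes to the count. Among the receptors of fibronectin, 13 of 15 had a peak, of which 1 was higher and 2 were lower in Fts, or 7.69% and 15.4%. The median difference of their peak numbers was -0.33, beside 0 over all genes with a peak. ITGA5, the α subunit of the main fibronectin receptor, had 1, 3 and 3 peaks in Fs and 1, 0 and 1 in Fts, and these overlapped. ITGAV, the αv subunit, had 3, 3 and 3 peaks in Fs and 1, 1 and 2 in Fts. ITGB7 had 1 peak in each Fs sample and none in Fts. DPP4, a surface peptidase that binds fibronectin, had 1, 1 and 0 peaks in Fs and 3, 2 and 2 in Fts.

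Of the matrix proteins and their partners, 22 of 24 were annotated and 17 had a peak. COL1A2, a chain of collagen I, had no peak in Fs and 3, 1 and 1 in Fts, and FBLN2, a fibulin, had 1 in each Fs sample and none in Fts. COL1A1, the other chain of collagen I, had 2, 1 and 2 in Fs and 0, 0 and 1 in Fts, and these overlapped. The list had 1 gene higher and 1 lower, or 5.88% for each, and its median difference was -0.33. Of the 10 proteases and inhibitors that act on the matrix, 5 had a peak and none was set apart in either direction.

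Focal adhesion proteins, which tie integrins to actin, had 12 of 15 genes with a peak, of which 3 (25.0%) were higher and 1 (8.33%) was lower in Fts, with a median difference of 0.17. PTK2, the focal adhesion kinase, had no peak in Fs and 3, 5 and 5 in Fts. ACTN4, an α-actinin, had 1, 2 and 2 in Fs and 6, 6 and 6 in Fts, and VCL, vinculin, had none in Fs and 1, 3 and 2 in Fts. TLN1, talin, which joins integrin tails to actin, went the other way, with 4, 5 and 5 in Fs and 1, 2 and 1 in Fts. By covered share TLN1 overlapped between the groups, with 8.62%, 10.2% and 16% in Fs and 2.54%, 9.23% and 2.40% in Fts, and the list then had 4 genes higher, with ACTN1 added, and 0 lower. The other 3 lists kept their counts by covered share. No gene of these lists reached the difference of 29.0 peaks of FN1.

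Markers of sperm and of other cell types were read for their peaks as well, where a gene without a peak may still be expressed. Of 14 sperm and spermatid markers 7 had a peak in any sample, and PRM1, TNP1, ODF1, AKAP4, SMCP, TSSK6 and OAZ3 had none. Summed over that list, Fs samples had 3 to 5 peaks and Fts samples had 5 to 7, with ZPBP and SPATA18 higher and ACR lower in Fts. The summed peaks of the other lists were 6 to 9 in Fs and 2 to 9 in Fts for fibroblasts, with 8 of 10 markers holding a peak, 1 higher (COL1A2), 1 lower (VIM), and LUM and PDGFRB without a peak. For epithelium they were 1 to 2 and 6 to 7, with 4 of 6 markers holding a peak, 1 higher (KRT8, with none in Fs and 3, 4 and 2 in Fts), and EPCAM and CLDN4 without a peak. For hepatocytes, which make plasma fibronectin, they were 1 to 3 and 3 to 6, with 3 of 6 markers holding a peak, 1 higher (FGA), and ALB, SERPINA1 and FGB without a peak. For leukocytes they were 1 to 7 and 2 to 4, with 5 of 8 markers holding a peak, none set apart by peak number, and LYZ, CSF1R and CD14 without a peak. For endothelium they were 5 to 8 and 2 to 5, with 3 of 4 markers holding a peak, VWF lower and CDH5 without a peak, and for Sertoli and Leydig cells they were 2 to 5 and 3 to 4, with 5 of 6 markers holding a peak, SOX9 higher and AMH without a peak. By covered share, where 13.0% of all genes were higher and 7.98% lower, markers higher in all 3 Fts samples were 3 of 4 for epithelium (KRT8, KRT18 and KRT19), 2 of 5 for Sertoli and Leydig cells (SOX9 and FSHR), 2 of 7 for sperm and 1 each for leukocytes (LCP1), fibroblasts and hepatocytes, and those lower were 1 each for sperm, fibroblasts and endothelium. LCP1 was covered by 16.3%, 2.16% and 19.8% in Fs and by 29.7%, 48.9% and 46.1% in Fts. The epithelial sums of peaks did not overlap between the groups, though CDH1 did, with 0, 1 and 1 peaks in Fs and 0, 0 and 1 in Fts. Nor did the sums of the focal adhesion list overlap, with 11, 13 and 19 in Fs and 21, 25 and 21 in Fts. Over all genes with a peak the sums were 6678, 8638 and 8523 in Fs and 8271, 10158 and 10462 in Fts, which overlapped. How often the sums of such short lists lie apart was not counted. The part of the list sums in the FN1 values was not tested.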

How the data were processed

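The series holds 12 samples of boar sperm, with 3 IP and 3 input libraries for each of Fs and Fts. The authors trimmed reads with cutadapt (version 1.9.3 per the labels), aligned them to susScr11 with Hisat2, called peaks with MACS in each IP sample against its own input, and kept peaks on mRNAs. In the deposited peak lists the authors give each peak a MACS score, 10 times the -log10 p-value. This score depends on depth, which the lists do not hold, and is not a methylation level. The deposited site list holds the authors' own comparison of the groups and was not used.

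FN1 peaks were read by coordinates (starts moved to 1-based) and placed on RefSeq exons of Sscrofa11.1, Annotation Release 106. Peaks were assigned to genes by an overlap of 1 bp or more with any exon of a coding transcript, strand included. Covered shares use the longest coding transcript. Genes were named by rule: FN1, the 10 nearest by covered share, the 5 next by difference in peak number, up to 4 per list, and FN1 exons by score, absence of an Fts peak, presence of an Fs peak and coded motifs. An item that the rule names is not reported here. The members and lists were chosen with earlier results of these data known. Groups were called apart when all 3 values of one lay beyond all 3 of the other; no test was run, and the scripts were tested on simulated data. Alternatives were score minimums of 20 and 50, other definitions of coverage, joining and motif, a replicate block and leaving out each sample. Python 3 with numpy and scipy was used.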

Additional observations from a re-analysis of the deposited data

How the results depend on the processing

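FN1 stayed the gene with the largest difference in peak number with peaks of score 50 or more, with joined peaks and without each sample in turn. These settings were chosen after seeing the data. FN1 was picked for its many peaks in Fts, so nothing is read from this rank. With peaks of score 20 or more, the difference between the Fts and Fs means fell to 25.7 peaks and 51.9 percentage points of covered share, from 29.0 and 57.1. With a minimum of 50 it was 18 peaks and 39.0 percentage points, and 11 exons instead of 22 had a peak in all 3 Fts samples. Leaving out each sample gave 28 to 30.5 peaks, 55.6 to 59.3 percentage points and 9.5 to 11.5 joined peaks against 10.3. Exons with a peak in every Fts sample kept were then 22 to 28, a count that leaving out a sample cannot lower. Joining peaks at any distance from the exon ends gave 9.67. Midpoints on exons left 29.0.

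The difference in RRACH density between covered and other bases, 1.49 per kb over the Fts samples, turned to -1.99 with a score minimum of 50 and to -0.67 without Fts1, and it ranged from -0.67 to 3.60 over the samples left out; the cause was not tested. Of the list genes, 5 were higher and 4 lower in Fts, against 1 and 1 with a score minimum of 50. Leaving out each sample gave 5 to 6 higher and 4 to 8 lower, with 8 without Fs1. Leaving out a sample can only add genes to these counts, so that they did not fall is no support.

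A replicate block over equal numbers left the differences at 29.0 peaks, 57.1 percentage points and 10.3 joined peaks, as it must for a mean of differences. Deviations of equally numbered samples from their group means correlated at -0.032 to -0.017 over genes. For unequal numbers the values were -0.0018 to 0.021. Values this small for both kinds of pair cannot tell whether equal numbers share a boar. The numbers were not taken to pair the samples, because the labels do not tie them to boars. Depth per exon is unknown, since the lists hold no reads, and 3 samples per group limit the precision. Totals per library are given in the paper and differ by group. Mapped IP totals were higher in Fs, without overlap, while mapped input totals overlapped. Within each kind of library, the mapped share was lower in Fts, without overlap. Fts inputs also lost a larger share of raw reads before mapping. The part of these differences in the FN1 peaks and scores was not tested.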
